A study of Mus musculus with 8 samples.

Results

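Conventional myosin heavy chains were followed between day 10 of differentiation and day 0 in TC1 cells, a mouse embryonic stem cell line. The day-10 group comprised 4 libraries of wild-type TC1 cells labelled as differentiated, dissociated on day 10 of a protocol whose steps the labels do not describe. The day-0 group comprised 4 libraries of wild-type TC1 mouse embryonic stem cells taken before differentiation. Both groups are thus 1 cell line, and the labels do not state that replicate libraries were grown as separate cultures. The p-values therefore reflect the scatter of these particular libraries, part of which may be technical. The genes are the 8 heavy chains Myh3, Myh6, Myh7, Myh7b, Myh9, Myh10, Myh11 and Myh14, chosen by name and joined to the tables through the GENCODE M21 annotation. All 8 were among the 15097 genes tested, of 32780 genes summed, and 53 of their transcripts were present.

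A conventional myosin holds a pair of heavy chains, each with a motor head that pulls on actin and a long coiled tail that packs into filaments, and each heavy chain carries an essential and a regulatory light chain. Sarcomeric heavy chains build the thick filaments of striated muscle, Myh11 is the smooth muscle heavy chain, and Myh9, Myh10 and Myh14 encode the non-muscle heavy chains IIA, IIB and IIC used in cell division, adhesion and migration. In the mouse heart, Myh6 encodes the fast alpha chain that predominates in the adult ventricle, and Myh7 encodes the slower beta chain that predominates in the ventricle before birth.

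Libraries held 13525255 to 17843651 estimated counts at day 10 and 11242568 to 15808039 at day 0. All 7 pluripotency markers were lower at day 10, with summed levels of 51.7 to 81.2 CPM (counts scaled by library size) at day 10 and 1993 to 2313 CPM at day 0. Of the cardiac muscle markers, which include 4 light chains, 11 of 11 tested were higher, and the sum of all 12 was 317 to 450.5 CPM at day 10 and 53.8 to 61.4 CPM at day 0. Of the smooth muscle markers 8 of 9 were higher, with sums of 558 to 916 CPM at day 10 and 50.8 to 63.4 CPM at day 0. Of 10 skeletal muscle markers 3 were tested, of which 1 was higher, 1 lower and 1 not called, and Myod1, Myog, Myf5 and Myf6 held at most 4 counts over either day. Endothelial (6 of 6), blood (5 of 5 tested) and fibroblast or matrix (7 of 7) markers were also higher at day 10. Their sums ran from 481 to 596, from 65.5 to 99.4 and from 5983 to 10668 CPM at day 10, and from 40.3 to 44.2, from 0.277 to 0.589 and from 119.2 to 135 CPM at day 0. Epithelial markers were split between 3 higher and 3 lower, with sums of 328 to 539 CPM at day 10 and 700.2 to 762 CPM at day 0. Of 6 neural markers 1 was higher and 2 were lower, with sums of 43.2 to 185 CPM at day 10 and 236 to 272 CPM at day 0. The endothelial marker Cd93 and the blood markers Hbb-bh1, Hba-x and Plek held 0 counts at day 0. Cd93 and all 5 tested blood markers passed the low-count filter only through their day-10 values, so they could only be called higher. The same held at least for the cardiac markers Myl7 and Myl2, the smooth muscle marker Mylk and the skeletal marker Tnnt3. The skeletal marker Mylpf passed it only through day 0, so it could only be called lower. For scale, 42.7% of all tested genes were called higher and 39.4% lower at day 10. Markers of several cell types were thus higher together at day 10, and their part in the results on the heavy chains was not tested.

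Of the 8 heavy chains 4 were higher at day 10 (Myh6, Myh7, Myh11 and Myh10), 3 were lower (Myh3, Myh7b and Myh14), and Myh9 was not called. The test was edgeR's quasi-likelihood test with Benjamini-Hochberg adjustment over all genes at a threshold of 0.05. Such calls were common, since 42.7% of all tested genes were called higher and 39.4% lower, 82.1% in either direction. Tested against a change of more than 2-fold with edgeR's glmTreat, Myh6, Myh7, Myh11 and Myh10 remained higher, where 24.1% of all genes were called higher, and Myh3 remained lower, where 17.3% were called lower (41.4% in either direction). Libraries of the days did not overlap in CPM for 7 of the 8 genes, which was also true of 77.9% of all tested genes. In bulk RNA, fewer cells of a type and less RNA per cell cannot be told apart.

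**Figure D1:**
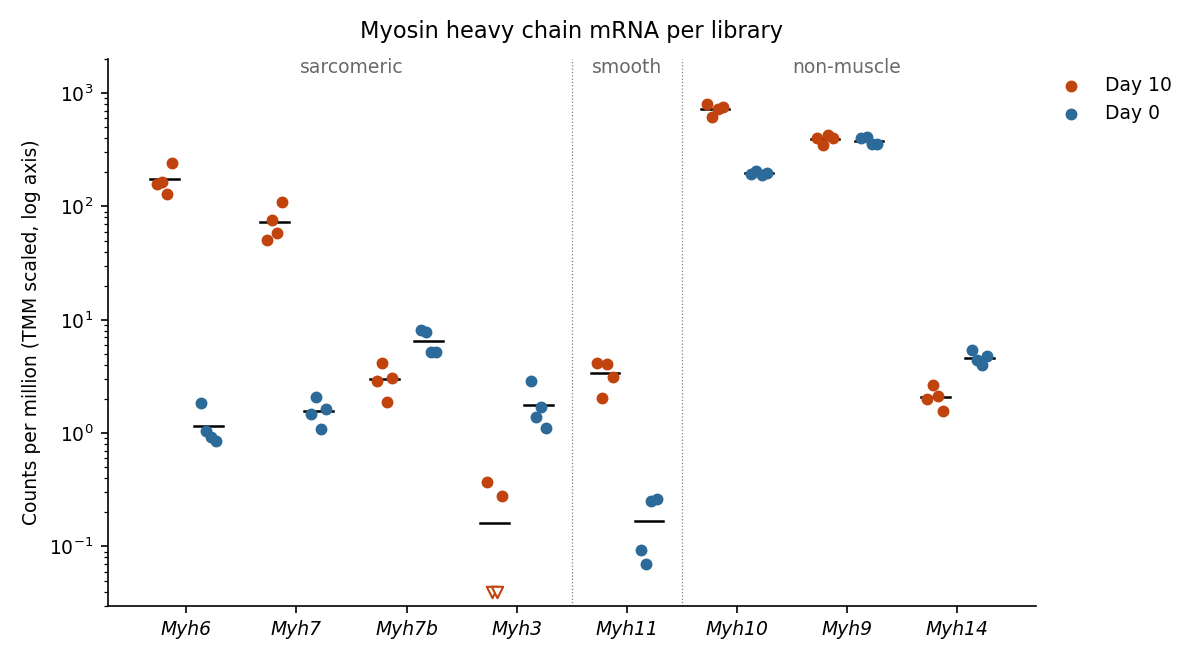
Levels in CPM (counts scaled by library size, with the TMM method, log axis) of each heavy chain in each library, with day 10 on the left and day 0 on the right of each gene. Points are libraries, bars are means of 4 libraries, and open triangles at the lower edge are libraries with a value of 0. Myh9 is the 1 gene whose days overlap, at 351 to 426 CPM at day 10 and 354 to 414 CPM at day 0.

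Myh6 and Myh7 lie head to tail on mouse chromosome 14 (GRCm38 positions 54941921 to 54966927 for Myh6 and 54970684 to 54994626 for Myh7, both on the minus strand, per GENCODE M21). Their coding sequences were 91.5% identical over aligned bases, and 32.9% of the 31-base words of Myh6 also occurred in Myh7, so that the estimation had to share reads between both genes. No other pair among the 8 shared more than 1.35% of such words, with identities of 54.9 to 76.9%. The first 60 coding bases are shown from GENCODE M21, with the 14 bases that differ between the genes in capitals.
Myh6: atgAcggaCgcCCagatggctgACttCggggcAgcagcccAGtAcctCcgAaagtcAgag
Myh7: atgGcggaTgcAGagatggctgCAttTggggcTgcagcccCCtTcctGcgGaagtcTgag

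Myh6 (intron 29), Myh7 (intron 31) and Myh7b (intron 19) also carry a microRNA in an intron, and the mature sequences from RefSeq (GRCm38.p6) are given because they share nearly the same seed, bases 2 to 8, set in capitals. A microRNA gene, Mir6923, is annotated within Myh3 on the same strand as well, and its sequence is not shown. The hairpin genes were not analysed here, so the host transcripts are the measured quantity.
mmu-miR-208a-3p: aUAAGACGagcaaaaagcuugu
mmu-miR-208b-3p: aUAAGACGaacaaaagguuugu
mmu-miR-499-5p: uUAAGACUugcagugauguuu

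Myh6 held 2163, 2686, 1779 and 4304 estimated counts in the 4 day-10 libraries and 20, 15, 11 and 13 in the 4 day-0 libraries. Every day-10 library was far above every day-0 library, and library 4 was the highest at day 10. Scaled by depth, Myh6 averaged 174 ± 47.4 CPM at day 10 and 1.17 ± 0.458 CPM at day 0 (SD, n = 4 each), a log2 change of 7.26 ± 0.29 (SE, edgeR adjusted p = 1.07e-08). It had the highest fold change of the 8 genes, at 153-fold.

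Myh7 held 686, 1228, 791 and 1973 estimated counts at day 10 and 16, 30, 13 and 25 at day 0. As for Myh6, the days did not overlap and day-10 library 4 was the highest. Myh7 averaged 73.7 ± 26.8 CPM at day 10 and 1.57 ± 0.412 CPM at day 0 (SD, n = 4 each), a log2 change of 5.52 ± 0.34 (edgeR adjusted p = 3.76e-07). The day-0 counts of both genes were low but above 0 in every library.

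The regions upstream of the RefSeq start sites of Myh6 and Myh7 are shown (GRCm38.p6), because both genes rose. They are chr14:54966642-54966857 for Myh6 and chr14:54994627-54994876 for Myh7, both on the minus strand. The Myh6 stretch ends before the first exon of the full-length transcripts, but it lies inside the gene as GENCODE M21 annotates it, in the first intron of the transcript Myh6-202, which starts further upstream at 54966927. The 250 bases before each start were searched on both strands for TATAAA, the MCAT motif CATTCC, the GATA motif GATAAG and the CArG box by name, and capitals mark every match in the printed stretch.
Myh6 upstream: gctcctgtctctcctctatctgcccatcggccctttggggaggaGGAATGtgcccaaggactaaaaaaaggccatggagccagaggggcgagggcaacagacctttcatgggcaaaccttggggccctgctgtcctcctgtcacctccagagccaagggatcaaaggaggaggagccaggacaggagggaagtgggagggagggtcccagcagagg
Myh7 upstream: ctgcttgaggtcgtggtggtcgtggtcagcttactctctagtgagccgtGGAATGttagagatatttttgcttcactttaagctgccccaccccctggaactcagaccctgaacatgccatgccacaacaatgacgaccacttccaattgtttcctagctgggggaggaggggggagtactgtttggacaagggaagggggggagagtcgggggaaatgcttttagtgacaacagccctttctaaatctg
Each held 1 MCAT match on the opposite strand (read as GGAATG), starting 206 bases before the start of Myh6 and 201 bases before that of Myh7. A further RefSeq start of Myh7, at 54994549, had no match to any searched motif in the 250 bases before it. Myh10 held 1 MCAT match 7 bases before its RefSeq start at 68691915, which is downstream of the GENCODE M21 start of the gene at 68691559. TATAAA occurred 29 bases before the start of Myh3 and 123 bases before that of Myh9, and neither the GATA motif nor the CArG box was found in the 7 genes that had an entry. Of 32851 promoters of the same length, 12.6% held MCAT, 12.4% TATAAA, 6.55% the GATA motif and 1.47% the CArG box. A match describes the letters of the window only.

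The ratio of Myh6 to Myh7 depended on which quantity was compared. In TPM, in which counts are scaled for transcript length and depth, it was 1.15, 1.07, 0.861 and 0.685 in the day-10 libraries and 0.945, 0.237, 0.109 and 0.410 in the day-0 libraries. These values overlap between the days, and the Myh6 share of summed Myh6 and Myh7 TPM, 48.0 ± 5.77% at day 10 and 26.7 ± 16.6% at day 0 (SD, n = 4 each), did not pass the test (difference 21.4 points, two-sided exact permutation test, adjusted p = 0.0857 over 13 shares). In estimated counts the ratio was 3.15, 2.19, 2.25 and 2.18 at day 10 and 1.28, 0.489, 0.876 and 0.530 at day 0. Here the days did not overlap, and the Myh6 share was 70.6 ± 3.56% at day 10 and 42.6 ± 10.9% at day 0, a difference of 28.0 points (exact permutation test, adjusted p = 0.0286, which is the smallest p that 4 against 4 libraries allow).

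The difference between the quantities lay in short transcripts. Myh7-207, an annotated transcript of 360 nt with 4 exons, took 10.0% of the Myh7 counts at day 10 but 66.5% of the Myh7 TPM. Myh6-203, of 411 nt with 4 exons, took 2.96% of the Myh6 counts at day 10 and 40.8% of the Myh6 TPM. Of their 31-base words, 91.8% and 86.9% also occurred in the full-length transcript of their gene. At day 0 other short transcripts weighed on TPM. Myh6-207, of 542 nt, held 0.813 and 1.89 counts in day-0 libraries 2 and 4, but 51.5% and 73.4% of the Myh6 TPM. Myh7-206, of 595 nt, took 29.8, 0, 35.2 and 82.1% of the Myh7 TPM in the day-0 libraries. In day-10 library 4, which had the lowest day-10 TPM ratio, Myh7-206 took 21.8%. With only transcripts of at least 5000 nt, a restriction chosen after these values were seen, the TPM ratio was 3.68, 2.47, 2.65 and 2.75 at day 10 and 1.35, 0.665, 1.52 and 0.608 at day 0. Full-length Myh6 was thus above full-length Myh7 in all 4 day-10 libraries, and above it in 2 of the 4 day-0 libraries. Over protein-coding transcripts of any length, the Myh6 share of TPM was 51.5 ± 4.37% at day 10 and 40.6 ± 27.0% at day 0, a difference of 10.96 points that did not pass the test (exact permutation test, adjusted p = 0.429). The Myh6 share in full-length TPM was 73.9 ± 3.25% at day 10 and 48.9 ± 11.6% at day 0, a difference of 25.1 points (exact permutation test, adjusted p = 0.0286).

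**Figure D2:**
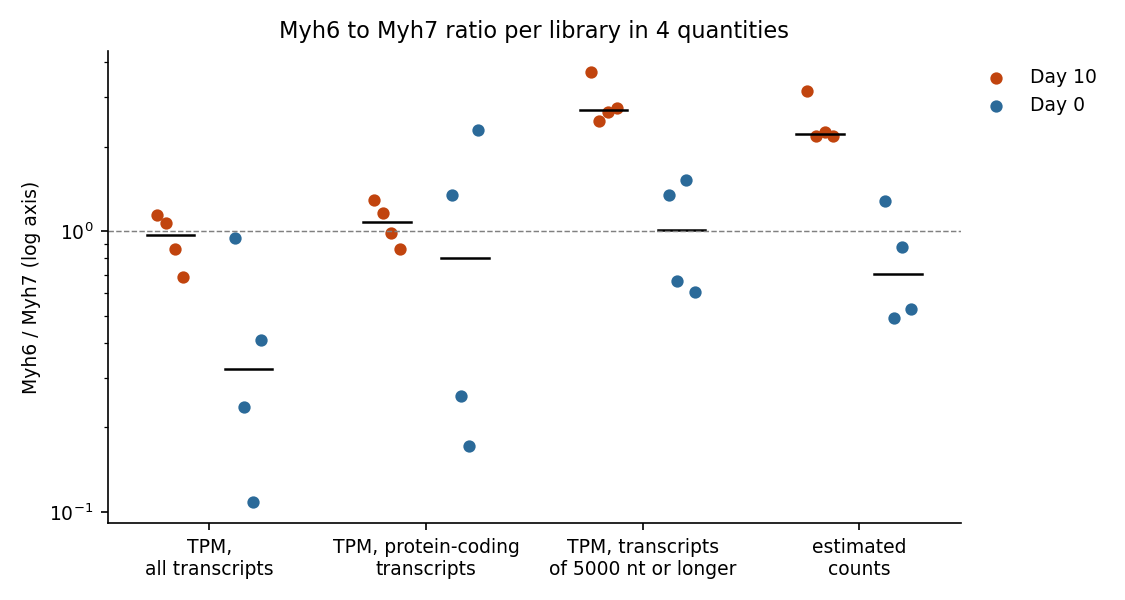
Ratio of Myh6 to Myh7 (log axis) per library in 4 quantities, with day 10 on the left and day 0 on the right of each. Points are libraries, bars are medians, and the dashed line is a ratio of 1. In estimated counts and in TPM of transcripts of 5000 nt or longer the day-10 libraries lie above all day-0 libraries, while in TPM of all transcripts and of protein-coding transcripts the days overlap.

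The precision of this ratio was limited at day 0, where a library held 11 to 20 counts of Myh6 and 13 to 30 of Myh7. The share of Myh6 in the counts of both was 75.9% (95% Wilson interval 74.3 to 77.5%), 68.6% (67.2 to 70.1%), 69.2% (67.4 to 71.0%) and 68.6% (67.4 to 69.7%) in the 4 day-10 libraries. In the day-0 libraries it was 55.6% (39.6 to 70.5%), 33.3% (21.4 to 47.9%), 45.8% (27.9 to 64.9%) and 34.2% (21.2 to 50.1%). Of these, the interval of day-0 library 1 reaches the values of day 10 and the other 3 do not. The intervals cover counting error only.

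Myh7b, the sarcomeric heavy chain gene that hosts miR-499, was lower at day 10. It held 39, 67, 26 and 55 counts at day 10 and 88, 111, 62 and 79 at day 0, and after scaling the days did not overlap, at 1.90 to 4.14 CPM at day 10 and 5.17 to 8.11 CPM at day 0. The log2 change was -1.12 ± 0.25 (edgeR adjusted p = 0.000899), and a change of more than 2-fold was not called (adjusted p = 0.288). Myh7b therefore changed in the opposite direction to Myh6 and Myh7. Trpc4ap, which overlaps the Myh7b locus on the other strand, held 8677 counts at day 10 and 4088 at day 0, and the counting is not stated to use strand.

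Myh3, the embryonic skeletal muscle heavy chain, was lower at day 10, where few counts remained. It held 5, 0, 0 and 5 counts at day 10 and 31, 20, 20 and 17 at day 0, so both empty libraries were of day 10. The gene passed the low-count filter only through its day-0 values. The log2 change was -3.34 ± 0.64 (edgeR adjusted p = 0.000283) and lay between -3.99 and -0.77 over the alternatives, the smallest size on log2(TPM + 0.5), where low values are compressed. The tested skeletal muscle markers did not share a direction. Tnnt3, fast skeletal troponin T, was higher with 201 counts at day 10 and 2 at day 0, and Mylpf was lower. Tnnt3 passed the low-count filter only through day 10 and Mylpf only through day 0, so neither could be called in the other direction. Acta1, skeletal actin, was not called with 90 counts at day 10 and 103 at day 0.

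The remaining heavy chains of the family were barely detected. Over the 4 libraries of a day, Myh1, Myh2, Myh4, Myh8, Myh13 and Myh15 held 4, 7, 6, 4, 3 and 19 counts at day 10 and 0, 0, 1, 3, 30 and 0 counts at day 0. None of these 6 genes passed the filter on low counts. Mhrt, a noncoding RNA antisense to Myh7, held 2 counts at day 10, both in library 1, and 0 at day 0.

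Myh11, the heavy chain of smooth muscle, held 57, 33, 56 and 56 counts at day 10 and 1, 1, 3 and 4 at day 0. Every day-10 library was above every day-0 library, but the gene passed the low-count filter only through its day-10 values. It averaged 3.37 ± 1.0 CPM at day 10 and 0.169 ± 0.102 CPM at day 0 (SD, n = 4 each), a log2 change of 4.22 ± 0.44 (edgeR adjusted p = 5.93e-07). The change was 1.46 on log2(TPM + 0.5), where low values are compressed. Among the smooth muscle markers Acta2, smooth muscle actin, was higher as well, at 428 ± 102 CPM at day 10 and 8.15 ± 2.43 CPM at day 0.

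Splice forms of Myh11 could not be compared with confidence at this depth. In day-10 libraries 1, 3 and 4 all counts, 57, 56 and 56, were assigned to Myh11-201, while in library 2 it had none and 31.7 counts were assigned to Myh11-204. Myh11-204 differs from Myh11-201 at both ends and by an exon of 21 bases, shown from GENCODE M21 in capitals as the internal exon in which they differ, at chr16:14248580-14248600 (GRCm38, minus strand).
Myh11-204 exon: CAAGGTCCATCTTTTGCCTAC

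Myh10, non-muscle heavy chain IIB, had the highest TPM of the members at day 10. It held 10993, 9956, 9908 and 13484 counts at day 10 and 2114, 2949, 2266 and 3018 at day 0. Scaled by depth, the day-10 libraries lay between 615 and 809 CPM and the day-0 libraries between 191 and 205 CPM, with a narrow spread within each day. Myh10 averaged 726 ± 82.0 CPM at day 10 and 197 ± 6.16 CPM at day 0 (SD, n = 4 each), a log2 change of 1.88 ± 0.08 (edgeR adjusted p = 3.99e-11), which is 3.68-fold.

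Myh9, non-muscle heavy chain IIA, held 5479, 5685, 5831 and 7129 counts at day 10 and 4376, 5943, 4199 and 5403 at day 0. Scaled by depth it averaged 395 ± 31.5 CPM at day 10 and 381 ± 32.1 CPM at day 0 (SD, n = 4 each), and the libraries of both days overlapped. The log2 change of 0.05 ± 0.08 was not called (edgeR adjusted p = 0.539). Its direction depended on the scaling: the change was 0.32 on log2(TPM + 0.5) with limma (adjusted p = 0.00394), where the median of all genes was 0.43 and 52.1% of genes were called higher and 27.1% lower, and -0.61 with the trend over transcript length removed (edgeR adjusted p = 3.37e-06), where 40.1% were called higher and 41.0% lower. The median of all genes was 0.06 in the main test.

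Myh14, non-muscle heavy chain IIC, was low at both days. It held 27, 43, 29 and 28 counts at day 10 and 59, 63, 47 and 73 at day 0, and the days did not overlap in CPM (1.57 to 2.65 CPM at day 10 and 3.96 to 5.44 CPM at day 0). The log2 change was -1.15 ± 0.23 (edgeR adjusted p = 0.000346), and a change of more than 2-fold was not called (adjusted p = 0.217). Epithelial markers, a group of genes of a cell type in which Myh14 is commonly found, did not share a direction, as given above.

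Transcript length went together with the direction of change across genes, which bears on all 8 heavy chains because each has a long transcript. Of 1782 tested protein-coding genes with transcripts of 5000 to 8000 nt, 64.7% were called higher and 22.1% lower, with a median log2 change of 0.64. Over all 14111 tested protein-coding genes these values were 42.8%, 40.2% and 0.04. With the length trend removed, the changes of the 8 genes were 6.61 for Myh6, 4.94 for Myh7, 3.54 for Myh11, 1.21 for Myh10, -0.61 for Myh9, -1.75 for Myh7b, -1.79 for Myh14 and -3.99 for Myh3. The directions of the other 7 genes were unchanged by it. The part of length in each change was not tested beyond this removal.

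**Figure D3:**
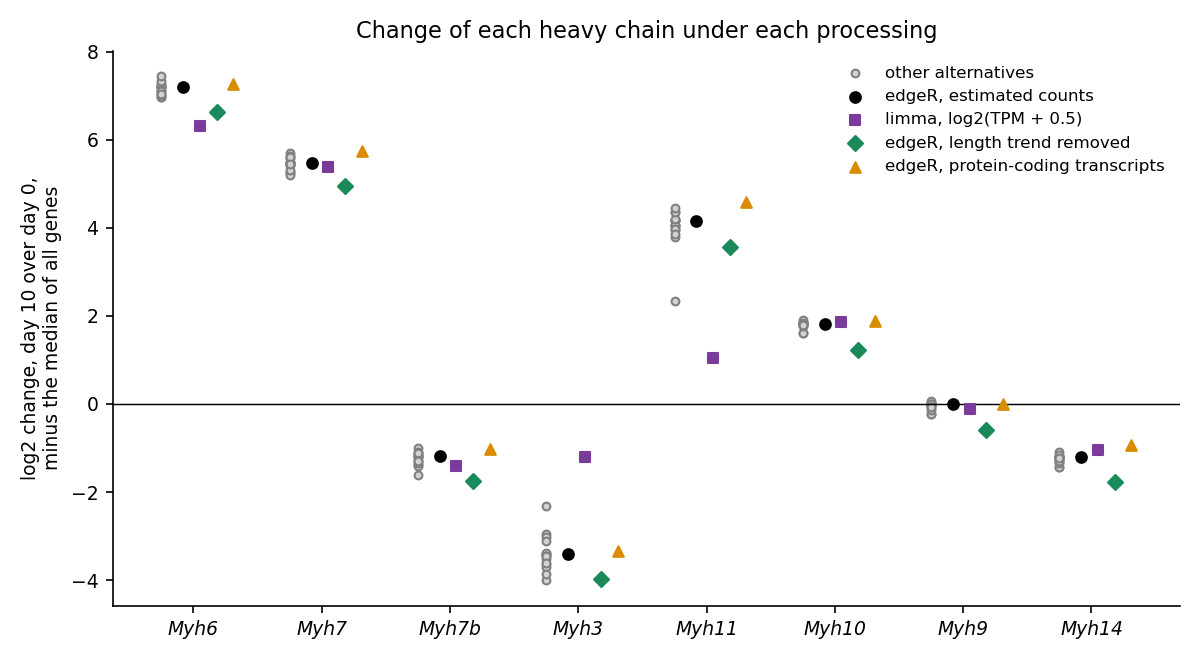
Log2 change of each heavy chain, day 10 over day 0, minus the median change of all genes under the same processing. Grey points are the other alternatives, among them leaving out each library, and the symbols are the main test (black), limma on log2(TPM + 0.5), removal of the length trend and protein-coding transcripts only. Myh9 has its lowest value, -0.60, with the length trend removed, and the other 7 genes keep their direction.

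Compared per length, Myh10 and Myh9 were the leading heavy chains of both days, in opposite order. At day 10 Myh10 had 470 ± 50.9 TPM, Myh9 362 ± 31.6, Myh7 120 ± 55.6 and Myh6 106 ± 28.3 (SD, n = 4), followed by Myh7b at 1.58, Myh14 at 1.38, Myh11 at 1.10 and Myh3 at 0.0561. Libraries of Myh10 and Myh9 did not overlap, those of Myh7 and Myh6 did, and those of Myh7b, Myh14 and Myh11 did. At day 0 Myh9 had 290 ± 13.7 TPM and Myh10 96.2 ± 8.96, followed by Myh7b at 3.69, Myh14 at 2.39, Myh7 at 1.67, Myh6 at 0.494, Myh3 at 0.457 and Myh11 at 0.0733. Myh9 and Myh10 did not overlap at day 0 either, and Myh11 lay below all others, while the neighbours from Myh7b to Myh3 overlapped.

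Myh10 made up 44.4 ± 5.15% of the summed TPM of the 8 genes at day 10 and 24.4 ± 1.96% at day 0, and Myh9 made up 34.1 ± 2.32% at day 10 and 73.4 ± 2.0% at day 0 (SD, n = 4 each). The 4 sarcomeric genes together made up 16.3, 24.4, 15.9 and 28.4% at day 10 and 1.33, 2.29, 1.41 and 1.34% at day 0. No library of one day reached the range of the other in any of these shares. Among the 3 non-muscle genes alone, Myh10 made up 56.4 ± 2.87% at day 10 and 24.8 ± 2.0% at day 0. All 12 shares other than that of Myh6 among Myh6 and Myh7 passed the exact permutation test (adjusted p = 0.0310 over 13 shares, each with a raw p of 0.0286, the smallest possible), and shares of one sum are not independent of each other.

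The change of order between Myh9 and Myh10 did not rest on short transcripts. In TPM of transcripts of at least 5000 nt, Myh10 had 142.7 ± 13.1 at day 10 and 29.0 ± 2.87 at day 0, and Myh9 had 85.4 ± 5.61 at day 10 and 62.5 ± 9.58 at day 0 (SD, n = 4 each). Myh10 then made up 62.3 ± 2.02% of the non-muscle sum at day 10 and 31.5 ± 1.24% at day 0. The order of the cardiac pair did change, with full-length Myh6 at 58.8 ± 15.7 TPM and full-length Myh7 at 20.9 ± 6.78 TPM at day 10, without overlap.

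**Figure D4:**
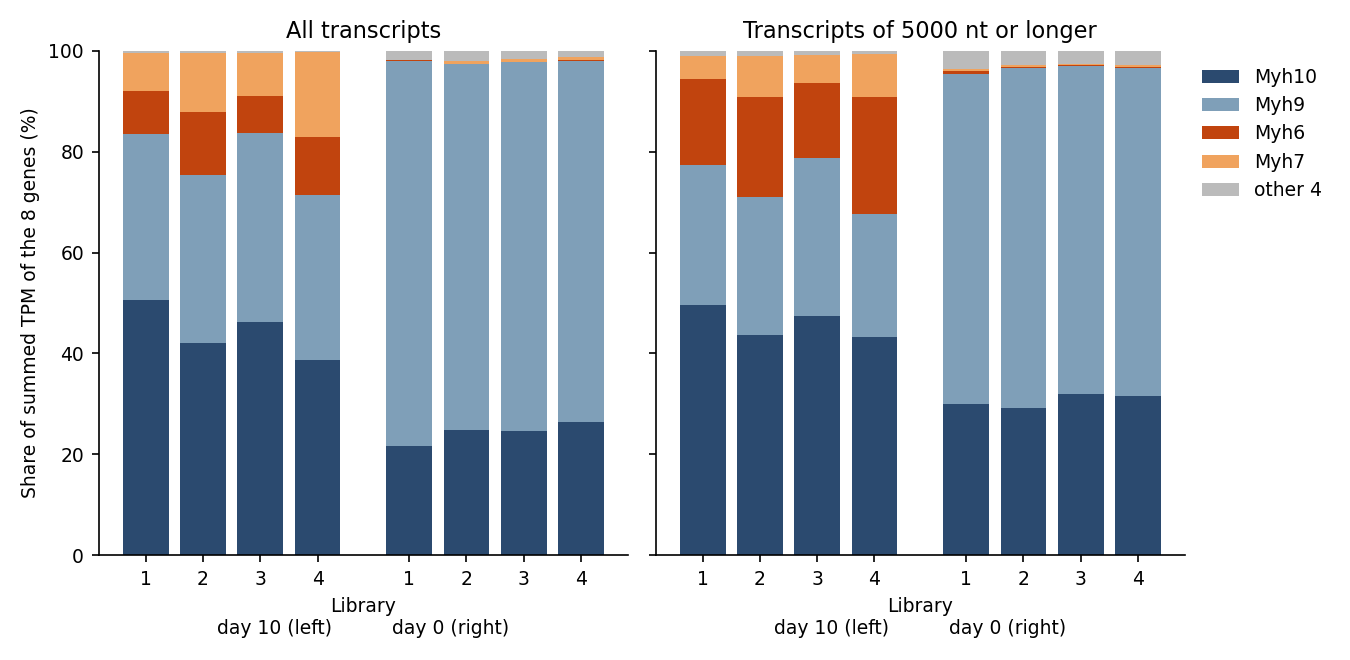
Share of the summed TPM of the 8 heavy chains per library, over all transcripts (left panel) and over transcripts of 5000 nt or longer (right panel), with day 10 left of day 0 in each panel. Bars stack Myh10, Myh9, Myh6, Myh7 and the other 4 genes. Over all transcripts Myh9 makes up 32.6 to 37.5% at day 10 and 71.6 to 76.2% at day 0.

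Of the 53 member transcripts 19 were tested, of which 11 were higher, 1 lower and 7 not called, while 26.8% of 42001 tested transcripts were called higher and 23.8% lower, 50.6% in either direction. Among the higher ones, at least Myh6-203, Myh7-206 and Myh7-207 passed the low-count filter only through day 10, so they could only be called higher. The test was edgeR's quasi-likelihood test on estimated counts per transcript, which does not include the error of assigning reads to transcripts. The full-length transcripts Myh6-205, with a log2 change of 7.15 ± 0.31 (adjusted p = 9.20e-07), and Myh7-201, with 5.60 ± 0.32 (adjusted p = 3.14e-06), followed their genes. They held 92.2% and 82.8% of the counts of their genes at day 10, so they are not separate evidence. Myh6-203 held 327 counts at day 10 and 0 at day 0. Setting day 0 to 3 counts, summed over its libraries, makes it 93.1-fold higher. This is not a lower bound, because 86.9% of the words of Myh6-203 also occur in full-length Myh6. An estimate of 0 therefore does not limit how many reads came from it. The transcript that was lower was Myh7b-201.

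Within Myh10, 3 of 5 tested transcripts were called higher (Myh10-202, Myh10-204 and Myh10-210), where 26.8% of all tested transcripts were. Myh10-203 and Myh10-201 were not called, and Myh10-201 passed the low-count filter only through day 10. Myh10-203 is a full-length transcript of 7791 nt, and Myh10-202, of 7759 nt, has a first exon of its own whose start lies 401 bases downstream. That exon holds 80 annotated coding bases, whereas the first exon of Myh10-203 holds none. The coding bases are shown from GENCODE M21 because they distinguish the Myh10 transcript with the highest fold change, with the start codon in capitals, at chr11:68692480-68692559 (GRCm38, plus strand).
Myh10-202 first coding exon: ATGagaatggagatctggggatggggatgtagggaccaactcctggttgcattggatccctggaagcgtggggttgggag

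Myh10-202 was estimated at 4852, 4810, 4792 and 8752 counts at day 10 and 304, 189, 2.80 and 27.0 counts at day 0. All day-10 libraries were above all day-0 libraries, and the day-0 libraries differed widely among themselves. It averaged 368 ± 81.3 CPM at day 10 and 10.7 ± 12.6 CPM at day 0 (SD, n = 4 each), a log2 change of 5.11 ± 1.01 (edgeR adjusted p = 0.00305). Myh10-202 passed the low-count filter only through its day-10 values, which limits what this call can show. Myh10-203 was estimated at 2755, 2415, 2064 and 1165 counts at day 10 and 1322, 1918, 1585 and 2047 at day 0, and its log2 change of 0.08 ± 0.29 was not called (edgeR adjusted p = 0.839). Day-10 library 4 was the highest for Myh10-202 and the lowest for Myh10-203.

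As shares of the Myh10 count, Myh10-202 took 51.4 ± 9.20% at day 10 and 5.46 ± 6.59% at day 0, and Myh10-203 took 19.7 ± 7.59% at day 10 and 66.3 ± 3.23% at day 0 (SD, n = 4 each). The days did not overlap for either share, but after adjustment over the 6 transcript shares compared neither passed the exact permutation test (adjusted p = 0.0857). Myh10-202 and Myh10-203 are told apart by few positions, with 242 and 171 31-base words of their own, so the split between them rests on reads at their 5′ ends.

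Myh10-204, a short annotated transcript of 1315 nt, changed with the gene at 171 ± 26.4 CPM at day 10 and 48.3 ± 9.0 CPM at day 0, a log2 change of 1.82 ± 0.16 (edgeR adjusted p = 3.80e-05). Its share of the Myh10 count was 23.9 ± 1.39% at day 10 and 24.2 ± 4.10% at day 0, which overlapped. Of the Myh10 TPM it took 65.9% at day 10 and 66.7% at day 0. The retained-intron transcript Myh10-210 averaged 20.1 ± 1.30 CPM at day 10 and 4.03 ± 1.58 CPM at day 0 (log2 change 2.31 ± 0.27, edgeR adjusted p = 0.000164).

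**Figure D5:**
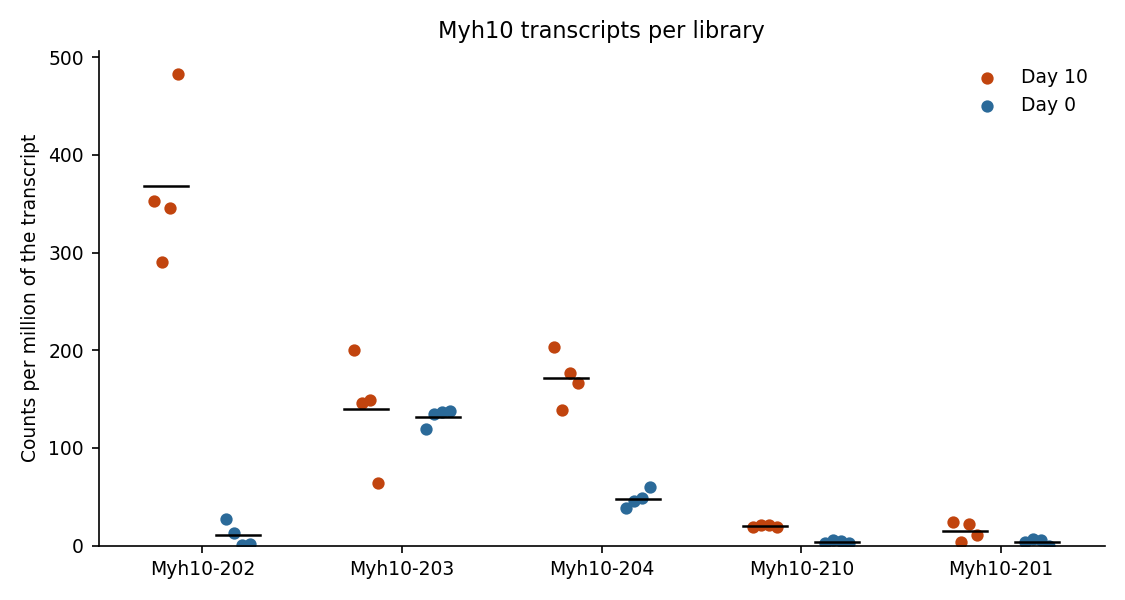
Level in CPM of 5 Myh10 transcripts per library, with day 10 on the left and day 0 on the right of each. Points are libraries and bars are means of 4. Myh10-202 lies at 291 to 482 CPM at day 10 and 0.258 to 27.6 CPM at day 0, whereas the days overlap for Myh10-203.

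Myh10-201 carries 2 extra coding exons in the motor head, of 30 and 63 bases, which correspond to the insertions known from neuronal forms of the protein. It averaged 15.4 ± 9.47 CPM at day 10 and 3.84 ± 2.90 CPM at day 0, overlapped between the days and was not called (edgeR adjusted p = 0.135). The exons are shown from GENCODE M21 in capitals as the sequence on which the estimate depends, at chr11:68745935-68745964 and chr11:68775365-68775427 (GRCm38, plus strand).
Myh10 exon of 30 bases: CAGGAATCGCCTAAGCCCGTGAAACCCCAG
Myh10 exon of 63 bases: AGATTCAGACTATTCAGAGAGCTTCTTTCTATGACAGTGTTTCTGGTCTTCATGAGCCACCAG

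Within Myh9 the full-length transcript Myh9-201 averaged 299 ± 26.1 CPM at day 10 and 301 ± 31.6 CPM at day 0 and was not called (edgeR adjusted p = 0.936). Its 3 tested retained-intron transcripts, by contrast, were called higher, where 26.8% of all tested transcripts were. The log2 changes were 1.78 ± 0.35 for Myh9-204, 1.06 ± 0.23 for Myh9-205 and 0.98 ± 0.18 for Myh9-206 (edgeR adjusted p = 0.00279, 0.00431 and 0.00192). Their levels were 3.49, 12.1 and 12.2 CPM at day 10 and 1.01, 5.78 and 6.20 CPM at day 0. None of the 3 Myh9 transcript shares compared passed the exact permutation test.

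Splice forms of Myh14 were not resolved. Myh14-201 and Myh14-202 differ at their 5′ ends and by an exon of 24 bases at chr7:44657417-44657440 (GRCm38, minus strand), shown from GENCODE M21 in capitals as the internal exon in which they differ. Counts of Myh14-201 were 14.9, 40.7, 0 and close to 0 at day 10 and 49.5, close to 0, 27.7 and 59.1 at day 0. In every library other than day-10 library 1, at least 1 of the 2 forms held no or next to no counts. Neither was called (edgeR adjusted p = 0.420 for Myh14-201 and 0.887 for Myh14-202).
Myh14-201 exon: GCCTCCGTCAGCACCATGTCTTAT

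The light chains, which bind the neck of the heavy chain and are needed for its lever arm, were counted next. Of 5 essential light chains 4 were tested, of which 2 were higher and 1 lower (median log2 change 2.04, against 0.06 over all genes). The counts of this list and of those below stand against 42.7% of all tested genes called higher and 39.4% lower. Myl4, the atrial and embryonic form, averaged 38.3 ± 9.46 CPM at day 10 and 2.26 ± 0.920 CPM at day 0, and Myl3, the ventricular form, 20.7 ± 7.98 CPM at day 10 and 1.29 ± 0.274 CPM at day 0. Myl6b was lower, with a log2 change of -0.81 ± 0.23 (edgeR adjusted p = 0.00536). Of 6 regulatory light chains with a row, 5 were tested, of which 4 were higher and 1 lower (median 4.20).

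Myl9, the smooth muscle and non-muscle regulatory light chain, rose by 4.20 ± 0.18 on the log2 scale (edgeR adjusted p = 4.90e-11), Myl7, the atrial form, by 5.05 ± 0.47 and Myl2, the ventricular form, by 5.07 ± 0.59. Myl7 averaged 5.37 ± 2.27 CPM at day 10 and 0.166 ± 0.114 CPM at day 0, and Myl2 3.45 ± 1.28 CPM at day 10 and 0.0860 ± 0.132 CPM at day 0. Myl12a was called higher at a change of 0.27 ± 0.10 (edgeR adjusted p = 0.0197). Mylpf, the fast skeletal form, fell to 0.212 ± 0.120 CPM at day 10, against 13.4 ± 3.07 CPM at day 0. Myl7, Myl2 and Mylpf passed the low-count filter only through the day on which they were higher. The same held for Mybpc3, Myom1, Trim55, Mybpc2, Mylk, Mylk3, Smyd1 and Myo16 among the list genes named below.

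Of 13 thick filament partners 8 were tested, of which 7 were higher and 1 lower (median 3.70). Among all tested genes these shares were 42.7% and 39.4%. Mybpc3, cardiac myosin-binding protein C, rose by 5.33 ± 0.20 on the log2 scale, Myom1, which links thick filaments at the M line, by 5.34 ± 0.20 and Obsl1, an obscurin-like linker, by 1.25 ± 0.07 (edgeR adjusted p of at most 1.22e-09 for each). Trim55, a sarcomeric ubiquitin ligase, held 915 counts at day 10 and 0 at day 0, which is at least 260-fold higher when day 0 is set to 3 counts in sum. Mybpc2, the fast skeletal form of myosin-binding protein C, held 0 counts at day 10 and 72 at day 0, which is at least 28.1-fold lower by the same bound.

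Among genes that switch myosin on or off, 10 of 12 kinases and phosphatase subunits were tested, of which 5 were higher, 2 lower and 3 not called (median 0.23). Mylk, the smooth muscle light chain kinase, averaged 46.1 ± 5.05 CPM at day 10 and 0.386 ± 0.291 CPM at day 0. Mylk3, the cardiac light chain kinase, held 862 counts at day 10 and 2 at day 0. The phosphatase targeting subunits Ppp1r12b (log2 change 1.09 ± 0.09) and Ppp1r12a (0.40 ± 0.07) were also higher, while citron kinase Cit (-1.13 ± 0.08), which acts in cytokinesis, and the catalytic subunit Ppp1cb (-0.41 ± 0.09) were lower. On log2(TPM + 0.5) this list split into 9 higher and 1 lower, where 52.1% of all genes were called higher and 27.1% lower.

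Of 6 genes of myosin folding 2 were higher and 3 lower (median -0.39). The muscle-type factors rose, with Smyd1, a muscle methyltransferase required for thick filament assembly in zebrafish, at 4.85 ± 1.34 CPM at day 10 and 0.143 ± 0.0915 CPM at day 0, and Unc45b, the striated muscle myosin chaperone, at 11.1 ± 2.84 CPM at day 10 and 2.13 ± 0.733 CPM at day 0. The general chaperones Hsp90aa1 and Hsp90ab1 fell, with log2 changes of -2.33 ± 0.07 and -1.24 ± 0.06, as did Smyd2 (-0.65 ± 0.10). These chaperones have many clients besides myosin.

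Of 14 measured partners and regulators of non-muscle filaments 7 were higher, 5 lower and 2 not called (median 0.45). Rhob (log2 change 2.41 ± 0.08), Svil (1.98 ± 0.08), Shroom3 (1.46 ± 0.07) and Specc1 (1.27 ± 0.07) were higher. Shroom3 recruits contractile myosin to the cell apex, and Svil encodes supervillin, a myosin II-binding protein. The cytokinesis genes Anln (-1.72 ± 0.07), Ect2 (-1.65 ± 0.08) and Racgap1 (-0.24 ± 0.07) were lower, as was Rhoa (-0.60 ± 0.06).

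Of 21 tested unconventional myosins, which carry cargo or tether membranes rather than form filaments, 10 were higher and 7 lower (median 0.31). Among the higher ones Myo6, the motor that walks towards actin minus ends, averaged 320 ± 49.8 CPM at day 10 and 103 ± 9.14 CPM at day 0, and Myo1d, Myo16 and Myo18a had log2 changes of 2.11 ± 0.11, 4.89 ± 0.42 and 0.60 ± 0.06. Among the lower ones were Myo5c (-2.03 ± 0.15), Myo10 (-1.0 ± 0.07), Myo19 (-0.97 ± 0.09) and Myo1e (-0.73 ± 0.08). Both directions were thus represented, as over all genes.

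The genes whose pattern over the 8 libraries was most like each heavy chain were taken by the smallest root mean square difference of centred log2 CPM. For Myh6 they were Rab27b (0.207), Tbx5 (0.229), a cardiac transcription factor, and Chrm2 (0.234), the muscarinic receptor of the heart. For Myh7 they were Asb2 (0.25), Myom1 (0.257) and Csrp3 (0.280), a muscle LIM protein. For Myh11 they were Ifi27 (0.117), Cmtm3 (0.195) and Csf1 (0.219), and for Myh10 Pid1 (0.0527), Bace1 (0.0576) and Chsy1 (0.0585). For Myh9 they were Zfp84 (0.0325), Faf2 (0.0467) and Cd2ap (0.0530), for Myh7b Frmd5 (0.119), Arntl2 (0.171) and Grhl1 (0.175), and for Myh14 Hdc (0.112), Usp10 (0.118) and Adat2 (0.121). For Myh3 the nearest were 1810009A15Rik (0.312), Nlrc4 (0.346) and Adrb3 (0.371). Asb2 and Csrp3 held 0 CPM at day 0, and Rab27b, Tbx5 and Chrm2 0.0230, 0.0405 and 0.0230 CPM, so their likeness depends on the prior count of 2 that log2 CPM adds.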

How the data were processed

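Total RNA of 8 libraries, 4 per day, was quantified by the authors with kallisto (version given only as 1), per the submitters' processing notes, which also name DESeq2. Transcript reference and build: not given in the sources used here. Deposited tables hold estimated counts, which are not scaled and in 40.3 to 46.3% of values not whole (within 1e-06), and TPM, which the authors' tool scaled for effective length, per the file headers. Of 126126 transcripts 93.6% matched GENCODE M21 by identifier without version. The rest held 1.15 to 1.23% of counts and were left out.

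Estimated counts were summed per gene and rounded. Tests used edgeR 4.0.16 under R 4.3.3 (TMM scaling, filterByExpr, robust quasi-likelihood fit, glmTreat against a log2 change of 1), with Benjamini-Hochberg adjustment over all genes at 0.05. The common biological coefficient of variation was 12.5%. Transcripts were tested alike. The SE of a log2 change is its size over the root of the F statistic. Shares per library were compared by an exact permutation test (two-sided, scipy 1.17.1), whose 70 assignments allow no p below 0.0286. Transcript shares were compared for transcripts with at least 5% of a gene that held at least 50 counts in every library.

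Alternatives were DESeq2 1.42.0, limma 3.58.1 on log2(TPM + 0.5) and log2(TPM + 0.1), 2 other scalings, no low-count filter, offsets for transcript length and for its trend, protein-coding transcripts, a replicate block and leaving out each library. The fits were tested on simulated data. Members and gene lists were chosen with earlier results of these data known. Of each list up to 4 called genes with the smallest p in each direction are named, besides all other heavy chains and 3 most similar genes per member. Acta2, Tnnt3, Acta1, Cd93, Plek, the globins and the skeletal factors were named after their values were seen. The labels name no batch, and any batch that coincided with the day and the day itself cannot be told apart.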

Additional observations from a re-analysis of the deposited data

Results flagged for a closer look

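In 3 of 54 groups of 4 values 1 library stood apart from the other 3 beyond the 95% limit of Dixon's test, which chance alone exceeds in about 1 in 20 groups. Myh9 made up 37.5% of the summed heavy chain TPM in day-10 library 3, against 32.6 to 33.4% in the other day-10 libraries. The sarcomeric genes made up 2.29% in day-0 library 2, against 1.33 to 1.41% in the other day-0 libraries. A Myh9 transcript of 633 nt took 5.88% of the Myh9 count in day-0 library 2, against 8.24 to 8.58% in the others.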

How the results depend on the processing

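The calls of Myh3, Myh6, Myh7, Myh7b, Myh10, Myh11 and Myh14 kept their direction and side of the threshold under every alternative run. Myh9 did not: its log2 change was 0.32 on log2(TPM + 0.5) and 0.32 on log2(TPM + 0.1), both called, and reversed to -0.61 with the length trend removed. The cause was not tested. TPM also moved the split of all genes to 52.1% higher and 27.1% lower. The Myh6 share of Myh6 plus Myh7 passed the test in counts (28.0 points) and in full-length TPM (25.1 points), where short transcripts weigh little or are left out, but not over protein-coding transcripts (10.96 points, adjusted p = 0.429, against 21.4 points). The share of Myh9-201, not called, reversed to 2.15 points in TPM, against -1.27 points in counts. Member transcripts called lower numbered 3 without the filter and 4 with DESeq2, against 1, and 1 to 3 with 1 library left out.

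With 1 library left out, no share can pass, since the smallest exact p is 0.0571. Differences (day 10 minus day 0, points) of the shares of all 8 then ranged from 17.9 to 21.9 for Myh10, -40.4 to -38.3 for Myh9, 9.04 to 10.8 for Myh6, 8.81 to 11.9 for Myh7, 17.3 to 21.5 for the sarcomeric sum, 0.0770 to 0.0929 for Myh11, -0.559 to -0.414 for Myh14, -0.126 to -0.0862 for Myh3 and -0.867 to -0.582 for Myh7b. Of the non-muscle sum they ranged from 30.2 to 32.3 for Myh10, -31.9 to -29.7 for Myh9 and -0.536 to -0.390 for Myh14. The share of Myh10-204, not called, ranged from -1.70 to 1.49.

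Libraries with the same number correlated weakly in their deviations (r across genes 0.030 to 0.049). The main test did not treat the numbers as pairs, and whether they are pairs was not tested. Every library nevertheless correlated best with its own number (other pairs -0.072 to 0.028), a hint from the data and not from the labels. With a replicate block 12298 genes were called, against 12399. The change of Myh6 was 7.26 ± 0.18 with the block, against an SE of 0.29 without, that of Myh7 5.54 ± 0.16, against 0.34, and that of Myh9 0.05. Depth limits Myh3, Myh11, Myh14, Myh7b and the day-0 ratio of Myh6 to Myh7, which rest on few counts per library.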
